A study of Mus musculus with 912 samples.

Results

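The comparison concerned nuclei of the subiculum (Sub) and of CA1 that carried no FOS protein, in mice of the home cage (HC) and in mice 1 h after exposure to an unfamiliar environment (NE). Of 912 nuclei in the series, 360 belonged to these 2 exposures, and the members were the FOS− nuclei among them that the authors had labelled Sub or CA1 and that had at least 4000 genes with a log2(TPM+1) above 1. There were 94 such nuclei, 27 Sub and 67 CA1 (1 further CA1 nucleus fell short of 4000 genes). The mice were C57BL6 females between 8.7 and 9.0 weeks of age, and NE mice spent their exposure in a large cage with new huts and tunnels before they went back to the home cage. Nuclei were freed from the whole hippocampus and gated on the neuronal protein NEUN before they were sorted by staining for PROX1, CTIP2 (the product of Bcl11b) and FOS, and each nucleus became 1 SmartSeq2 library. The data are therefore RNA of the nucleus alone. TPM, a transcript abundance scaled to the library total, is corrected for transcript length, and the mean log2(TPM+1) over the nuclei of a type in a mouse is called the level below.

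The subiculum lies next to CA1 and receives its main output, and its pyramidal neurons carry information from the hippocampus to cortical and subcortical targets. CA1 and subicular pyramidal cells are both glutamatergic and are separated in adult mice by transcription factors, adhesion molecules and signalling proteins. Zbtb20, a zinc finger repressor, marks hippocampal neurons and is needed for the identity of CA1. The comparison asks which genes separate the 2 populations when neither carries the FOS protein of recent activity.

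The 27 Sub nuclei came from 7 mice. HC mouse 4 gave 7 Sub and 4 CA1 nuclei, HC mouse 8 gave 6 and 4, 1 h mouse 2 gave 4 and 21, 1 h mouse 4 gave 4 and 5, and 1 h mouse 10 gave 4 and 6. HC mouse 3 gave 1 Sub nucleus and 27 CA1 nuclei, and 1 h mouse 5 gave 1 Sub nucleus alone. The tests therefore used 5 mice with at least 2 nuclei of both types, each mouse being its own pair. HC mouse 4 and 1 h mouse 4 share a number and a batch prefix in the library names but not an exposure, and were treated as different animals. Below, 5 values of a gene always follow the order HC mouse 4, HC mouse 8, 1 h mouse 2, 1 h mouse 4 and 1 h mouse 10.

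The gate differed between mice. 1 h mouse 2 and HC mouse 3 were sorted as PROX1−CTIP2+, and HC mouse 4, HC mouse 8, 1 h mouse 4 and 1 h mouse 10 as PROX1−CTIP2−. Each batch prefix held 1 gate, so the effects of batch and gate cannot be told apart, but both types of a mouse passed the same gate. Of the CA1 nuclei, 48 came from the PROX1−CTIP2+ gate and 19 from the PROX1−CTIP2− gate, but only 5 Sub nuclei came from the former. Shares and medians of nuclei pooled over mice, given below, therefore mix the gates unequally between the types. The total count per nucleus had a median of 845607 in Sub (163434 to 1788472) and of 1238890 in CA1 (343713 to 2283247). Within mice the mean total differed by −65472 in Sub against CA1 over the 6 mice with both types, which was less than the spread (SD 313859, exact paired permutation test, two-sided p = 0.594, the smallest possible being 0.0313). Genes above 1 per nucleus averaged 7147 ± 650 in Sub and 6968 ± 440 in CA1 (SD, n = 6, exact paired permutation test, two-sided p = 0.625).

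The labels need a caution that holds for every value below. The authors named the nuclei from clusters of these same transcriptomes and from a classifier built on 51 genes, so a difference between the labels is partly set by the labelling, and the tests show only how steady it was from mouse to mouse. Classifier genes are named as such where they appear. Nuclei were counted per mouse and not as replicates, and the labels do not say whether mice of an exposure were handled apart.

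No gene passed the test across the transcriptome. Counts were summed over the nuclei of each type and mouse. By the quasi-likelihood test of edgeR, with the mouse as a block, 0 of 11039 genes had an adjusted p under 0.05 (0.00%), while 455 had an unadjusted p under 0.05. Of these 455, 185 were higher in Sub (1.68% of genes tested) and 270 lower (2.45%). limma on the levels also called 0 of 13685 genes, with 953 at p under 0.05 before adjustment. DESeq2 on the sums called 949, of which 316 were higher in Sub (2.86%) and 633 lower (5.73%). The sums varied widely between mice, with a common dispersion of 1.33. Because no gene passed, the genes below are described by their values and by the number of mice in which Sub lay above or below CA1. Over the 13685 genes with a mean level above 0.5, 534 were higher in Sub in all 5 mice (3.90%) and 450 lower in all 5 (3.29%). Both shares are the background for the count of any gene list below. The 5 Sub values lay wholly above the 5 CA1 values for 98 genes (0.716%) and wholly below for 58 (0.424%).

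**Figure D1:**
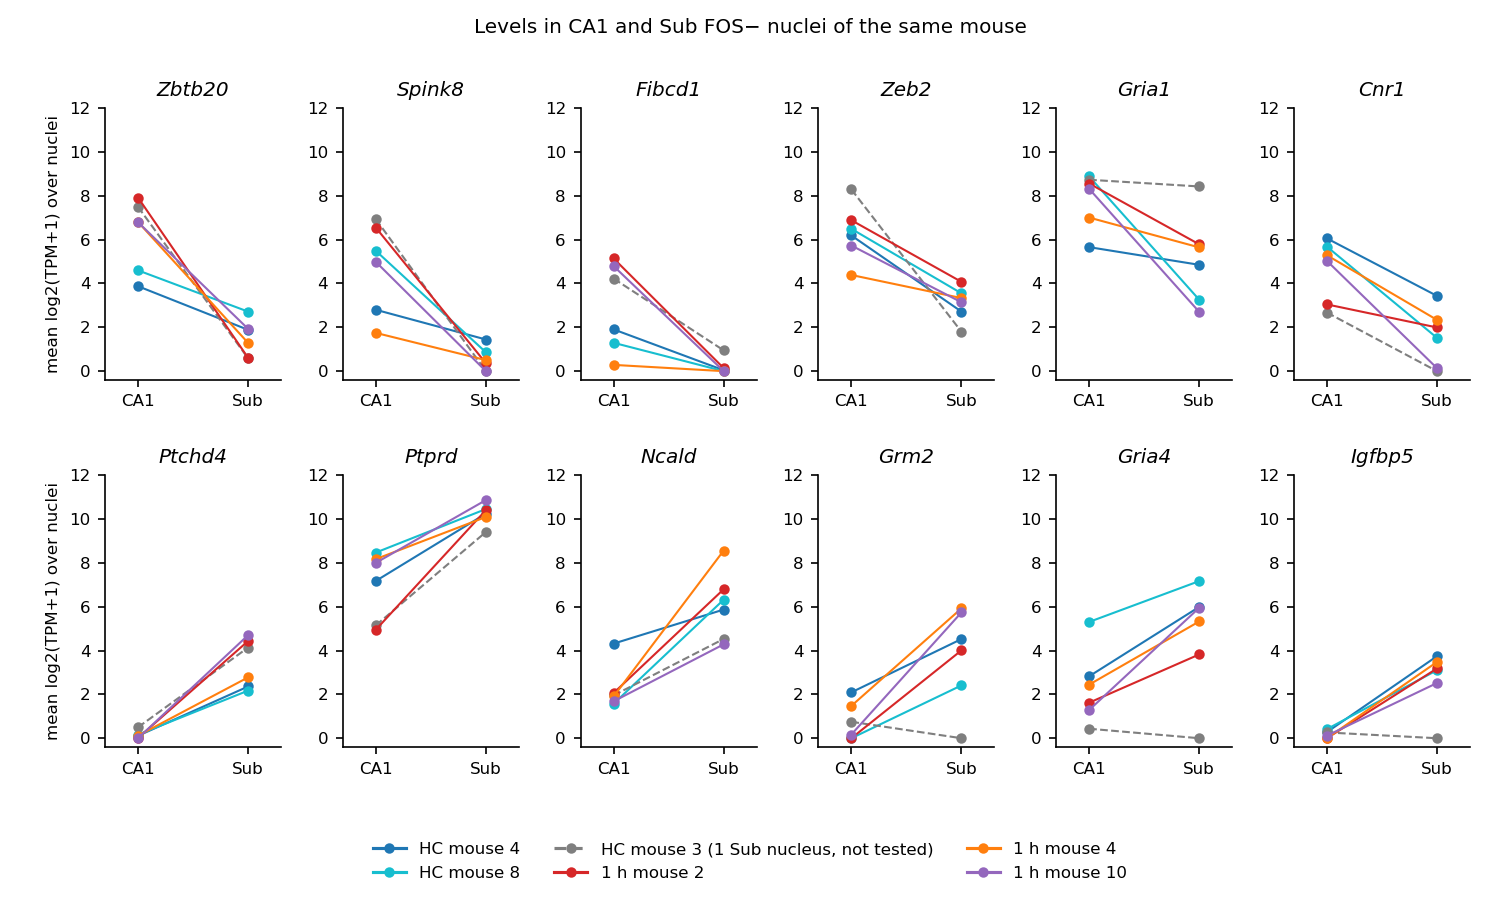
Mean log2(TPM+1) of 12 genes in CA1 and in Sub FOS− nuclei, 1 line per mouse, with HC mouse 3 dashed because it held 1 Sub nucleus. The upper genes lay lower and the lower genes higher in Sub in all 5 tested mice, while HC mouse 3 went the other way for Grm2, Gria4 and Igfbp5.

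Genes known for CA1 were lower in Sub. Of 10 CA1 markers, 5 were lower in Sub in all 5 mice, against 3.29% of all genes, and none was higher in all 5. The median difference over the 10 was −1.48 on the log2 scale, against 0.03 over all genes above 0.5. Zbtb20, which is also a classifier gene, had levels of 1.88, 2.71, 0.61, 1.29 and 1.93 in Sub and of 3.87, 4.60, 7.92, 6.80 and 6.79 in CA1. The highest Sub mouse stayed below the lowest CA1 mouse, and the gap varied from mouse to mouse. The mean difference in level was −4.31 ± 2.35 (SD, n = 5), and the edgeR log2 fold change was −5.92 ± 1.19 (SE, adjusted p = 1.00). Zbtb20 spans chromosome 16 from 42875881 to 43642602 (GRCm38, plus strand, protein coding). Its level was 9.82 in CA3 and 9.35 in DG (means of 3 mice each), both above CA1 and Sub. A Zbtb20 value above 1 was present in 14 of 27 Sub nuclei and in 61 of 67 CA1 nuclei.

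Spink8, which encodes a putative serine protease inhibitor, had levels of 1.44, 0.86, 0.36, 0.50 and 0.00 in Sub and of 2.80, 5.49, 6.55, 1.75 and 4.99 in CA1. The groups did not overlap, and the difference was −3.68 ± 2.25 (SD, n = 5). Fibcd1, a membrane receptor that binds acetylated sugars, was at 0.04, 0.00, 0.14, 0.00 and 0.00 in Sub and at 1.91, 1.29, 5.14, 0.29 and 4.79 in CA1. No Sub nucleus of 27 had Fibcd1 above 1, while 42 of 67 CA1 nuclei did, and any count at all was present in 3 of 27 and 52 of 67. In the sums of the 5 tested mice Fibcd1 held 3 counts in Sub and 15546 in CA1. Most of the CA1 counts came from 1 h mouse 2 (12739), and 1 h mouse 4 held 7. After every nucleus was thinned to 163434 counts, Fibcd1 was found in 1 of 27 Sub and 43 of 67 CA1 nuclei. Man1a, a Golgi mannosidase, and Calb1, the calcium buffer calbindin and a classifier gene, were also lower in all 5 mice, by −1.38 ± 1.07 and −1.65 ± 1.71 (SD, n = 5).

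Other CA1 markers did not separate the types. Wfs1, an endoplasmic reticulum protein that outlines the CA1 field, was lower in 4 of 5 mice, with levels of 3.68, 0.81, 1.26, 0.54 and 1.60 in Sub and 1.83, 2.99, 4.48, 4.57 and 1.97 in CA1. HC mouse 4 was the exception, and the groups overlapped. Mpped1 (0.33 ± 2.77), a classifier gene, Ndst4 (−0.02 ± 1.02) and Pou3f1 (−0.24 ± 1.60) had differences smaller than their SD over 5 mice.

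Of the 8 subiculum markers, 6 had a mean level above 0.5, and none was higher or lower in all 5 mice. Their median difference was 0.75. Fn1, the matrix protein fibronectin, had levels of 6.32, 5.67, 7.87, 4.24 and 2.69 in Sub and of 4.77, 5.17, 4.33, 5.66 and 4.65 in CA1. Sub was above CA1 in 3 mice and below in 2, and without 1 h mouse 2 the mean difference turned negative. Nts, the neuropeptide neurotensin, was above 1 in 7 of 27 Sub nuclei and 2 of 67 CA1 nuclei. HC mouse 8, 1 h mouse 4 and 1 h mouse 10 had a Sub level of 0.00. Slc17a6, the vesicular glutamate transporter of subcortical and some subicular neurons, had levels of 3.46, 1.47, 1.96, 1.64 and 1.97 in Sub and 0.00, 3.30, 0.10, 0.40 and 1.43 in CA1. It was higher in 4 of 5 mice and the groups overlapped. Ntng2, an axonal adhesion protein, differed by 1.09 ± 1.21, Tle4 by 0.33 ± 0.73, Ly6g6e by 0.30 ± 0.77, Teddm3 by −0.08 ± 1.33 and Fezf2 by −0.43 ± 3.44 (SD, n = 5).

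Several of these markers differed between nuclei of the PROX1−CTIP2+ and PROX1−CTIP2− gates. Among Sub nuclei of the PROX1−CTIP2+ gate, Fezf2, a transcription factor of subcortical projection neurons, was above 1 in 4 of 5, against 6 of 21 of the PROX1−CTIP2− gate. Teddm3 was above 1 in 2 of 5 against 0 of 21, and Nts in 3 of 5 against 3 of 21. Fn1 averaged 7.89 in the former and 5.05 in the latter. The 5 nuclei came from 2 mice and the 21 from 4, so these shares were not tested. In the other direction, Gria4 was above 1 in 2 of 5 nuclei against 18 of 21, and the transcription factor Mef2c averaged 1.68 against 5.56. The nuclei that share the Sub label thus differed among themselves between the gates. Mouse and batch prefix also differed between the gates, so their effects cannot be told apart. Ptprd (mean 10.20 and 10.39) and Zbtb20 (0.60 and 2.02) were high and low in both gates. CA1 nuclei differed between the gates as well. Gria4 was above 1 in 7 of 48 CA1 nuclei of the PROX1−CTIP2+ gate and in 9 of 19 of the PROX1−CTIP2− gate. For Wfs1 these shares were 37 of 48 and 8 of 19. Fezf2 ran opposite to Sub, with 13 of 48 and 9 of 19.

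**Figure D2:**
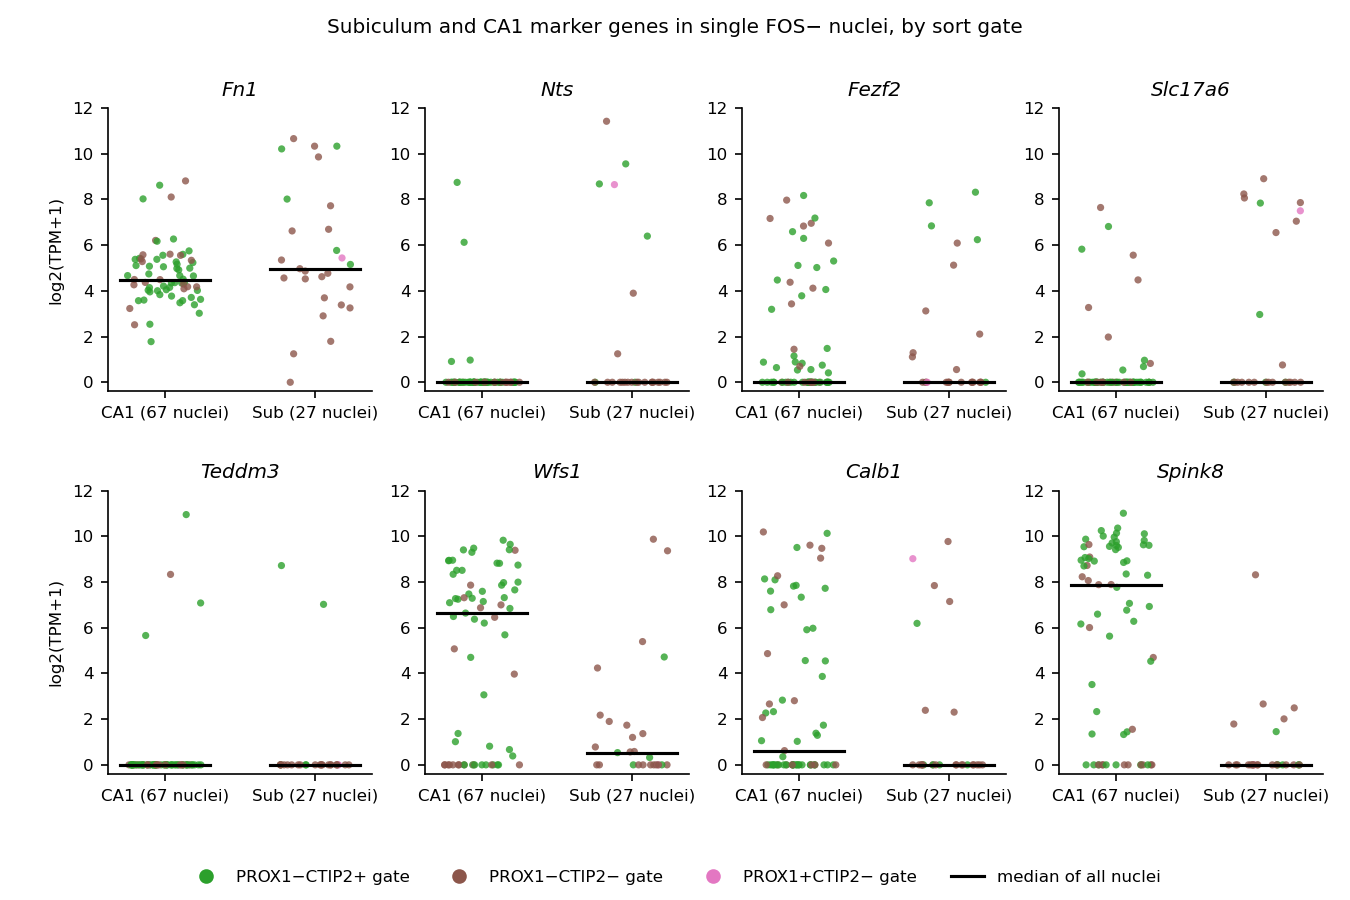
Log2(TPM+1) of 8 marker genes in each of the 67 CA1 and 27 Sub FOS− nuclei, coloured by sort gate, with the median as a bar. Nts, Fezf2, Slc17a6 and Teddm3 were at 0 in most nuclei of both types. Wfs1 had its median over all gates at 6.64 in CA1 and 0.54 in Sub. By gate, the Wfs1 median in CA1 was 7.26 in 48 PROX1−CTIP2+ nuclei and 0.00 in 19 PROX1−CTIP2− nuclei.

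The single Sub nucleus of 1 h mouse 5 came from the PROX1+CTIP2− gate, which the study used for VIP interneurons. Its log2(TPM+1) was 0.00 for Prox1, 0.23 for Gad2, the GABA-synthesizing enzyme, 0.00 for Slc17a7, 7.50 for Slc17a6, 8.65 for Nts and 10.55 for Ptprd. It entered no test.

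The genes higher in Sub with the smallest unadjusted p were led by Ptchd4, a transmembrane protein of the patched family and a classifier gene on chromosome 17 (42315947 to 42505077, plus strand, GRCm38). Its levels were 2.36, 2.17, 4.43, 2.77 and 4.70 in Sub and 0.11, 0.16, 0.01, 0.12 and 0.00 in CA1. Every Sub mouse was above every CA1 mouse, and HC mouse 3 showed the same (4.14 against 0.50). The sums of the 5 tested mice held 3576 counts in Sub and 6 in CA1, while the 27 CA1 nuclei of HC mouse 3 held 938 and its Sub nucleus 78. Over all mice, 15 of 27 Sub against 2 of 67 CA1 nuclei were above 1. At 163434 counts per nucleus it was detected in 16 of 27 and 5 of 67.

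Igfbp5, a secreted binding protein of insulin-like growth factors, was nearly as sharp, at 3.74, 3.10, 3.18, 3.48 and 2.52 in Sub and 0.28, 0.41, 0.00, 0.00 and 0.12 in CA1. The difference of 3.04 ± 0.48 (SD, n = 5) had the smallest spread among the 10 genes of this direction. The sums of these 5 mice held 5297 Sub and 8 CA1 counts. HC mouse 3 went against them, with 0 counts in its Sub nucleus and 860 in its 27 CA1 nuclei.

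Ptprd, a receptor tyrosine phosphatase that organizes synapses and a classifier gene, was abundant in both types. Its levels were 10.24, 10.45, 10.40, 10.09 and 10.86 in Sub and 7.17, 8.47, 4.95, 8.17 and 8.00 in CA1. All 27 Sub nuclei were at 9.10 or higher, whereas CA1 nuclei ranged from 0.00 to 10.54. The edgeR log2 fold change was 1.79 ± 0.33 (SE, adjusted p = 1.00) and the difference in level 3.06 ± 1.43 (SD, n = 5). Pcdh9, a protocadherin, was higher in all 5 mice at 8.66, 9.36, 7.33, 7.83 and 7.17 against 5.39, 7.38, 4.29, 5.64 and 6.26, with an edgeR log2 fold change of 1.02 ± 0.20 (SE, adjusted p = 1.00).

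Grm4, a presynaptic metabotropic glutamate receptor, was at 3.43, 2.51, 1.42, 1.67 and 0.96 in Sub and at 0.07 or less in CA1 (4.99 against 0.52 in HC mouse 3). Tmem44, a membrane protein, was at 4.58, 4.04, 3.75, 1.54 and 4.87 against 1.03, 0.38, 1.23, 1.31 and 1.34. Hdac7, a class IIa histone deacetylase, was at 2.33, 2.44, 1.63, 1.96 and 5.48 against 0.00, 0.88, 0.07, 0.00 and 1.13. None of these groups overlapped, and 11 of 27 Sub nuclei held Grm4 above 1 against 4 of 67 CA1 nuclei. BC030499 (6.50 ± 1.26 against 3.86 ± 0.13), 4921534H16Rik (2.56 ± 0.90 against 0.16 ± 0.21) and the predicted gene Gm24515 (4.43 ± 0.92 against 1.76 ± 0.57) completed the 10 genes of this direction.

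Among the genes lower in Sub with the smallest unadjusted p, Zbtb20 and Ppfia2 were the best expressed. Ppfia2, liprin alpha 2, a scaffold of the presynaptic active zone, had levels of 5.50, 6.36, 5.25, 5.34 and 4.79 in Sub and 6.00, 8.01, 6.92, 7.68 and 6.80 in CA1. It was lower in Sub in each of the 5 mice, although HC mouse 8 in Sub lay above HC mouse 4 in CA1. The edgeR log2 fold change was −1.53 ± 0.29 (SE, adjusted p = 1.00). Glo1, a glyoxalase that clears methylglyoxal, was at 0.00, 0.24, 0.00, 0.00 and 0.00 in Sub and at 1.60, 1.58, 1.54, 1.64 and 1.73 in CA1, but at 6.78 in the Sub nucleus of HC mouse 3. It was above 1 in 2 of 27 Sub and 22 of 67 CA1 nuclei.

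The remaining genes of this direction were rarely detected in Sub or had low levels there. Qk, an RNA-binding splicing regulator, was at 1.18 ± 0.76 in Sub and 3.20 ± 0.84 in CA1, and Pip5k1b, a phosphoinositide kinase, at 0.87 ± 0.43 and 2.74 ± 1.07 (SD, n = 5). Eed, a subunit of Polycomb complex 2, was above 1 in 1 of 27 Sub and 14 of 67 CA1 nuclei. Sertm1 was above 1 in 1 of 27 and 24 of 67, Xrcc6, a DNA end-binding protein, in 1 of 27 and 26 of 67, and Rtel1, a DNA helicase, in 1 of 27 and 15 of 67. With so few positive Sub nuclei these 4 genes rest on detection in single nuclei, and no fold was read from them.

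The classifier genes bear the labelling most directly. Of 51, 42 had a mean level above 0.5, of which 6 were higher in Sub in all 5 mice and 7 lower, and their median difference was 0.13. The higher ones were Ptchd4, Ptprd, Ncald, Cit, Vstm2a and Ntm, and the lower ones Zbtb20, Rfx3, Cnr1, Cpne7, Neurod6, Khdrbs3 and Calb1. Ncald, neurocalcin delta, a calcium sensor, had levels of 5.87, 6.32, 6.79, 8.56 and 4.28 in Sub and 4.32, 1.57, 2.06, 1.90 and 1.68 in CA1. It was higher in Sub in each mouse, and the ranges touched through HC mouse 4 in CA1 and 1 h mouse 10 in Sub. Cit, citron kinase, was at 7.27 ± 0.85 and 3.93 ± 1.90 without overlap, and all 27 Sub nuclei held it at 2.80 or more. Since the classifier was built on them, their counts are not independent of the label.

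Transcription factors differed in both directions. Of 40, 35 had a mean level above 0.5, of which 5 were higher in Sub in all 5 mice (Tshz2, Mef2c, Cux2, Satb1 and Meis2) and 4 lower (Zbtb20, Rfx3, Zeb2 and Neurod6), and the median difference was −0.22. Tshz2, a teashirt zinc finger protein, had levels of 5.21, 2.78, 3.96, 4.35 and 4.26 in Sub and 1.33, 2.35, 0.66, 0.99 and 0.81 in CA1, without overlap. It was the gene of the 5 with separated groups, and it was above 1 in 22 of 27 Sub and 10 of 67 CA1 nuclei. Cux2, a homeodomain factor of upper cortical layers, had the steadiest difference at 1.38 ± 0.47, and Mef2c differed by 2.49 ± 1.91, Satb1 by 1.47 ± 1.52 and Meis2 by 1.20 ± 1.08 (SD, n = 5).

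On the lower side, Zeb2, a zinc finger homeobox repressor, had levels of 2.71, 3.55, 4.07, 3.33 and 3.14 in Sub and 6.19, 6.49, 6.88, 4.38 and 5.73 in CA1, without overlap. Rfx3, a factor of ciliary genes, was at 2.89, 1.75, 2.94, 0.54 and 3.05 against 4.22, 7.81, 3.80, 5.99 and 5.04, also without overlap. Neurod6, a basic helix-loop-helix factor of pyramidal neurons, was lower in all 5 mice (−1.97 ± 2.04), with overlapping groups.

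Glutamate receptors had, with CA1 markers and cadherins, the largest shares of members with 1 direction among lists of at least 10 members above 0.5. Of 24, 21 had a mean level above 0.5, and 5 of these were higher in Sub in all 5 mice (Grm2, Gria4, Grm4, Grid1 and Grin1) and 4 lower, among them Gria1, Gria2 and Grin2b. That is 9 of 21, beside 3.90% and 3.29% of all genes. At an unadjusted p under 0.05, edgeR listed 4 in each direction, and none passed adjustment. The AMPA receptor subunits split. Gria1 was at 4.85, 3.26, 5.78, 5.64 and 2.70 in Sub and 5.66, 8.88, 8.56, 7.00 and 8.31 in CA1, a difference of −3.24 ± 2.29 (SD, n = 5). Sub was lower in each mouse, by least in HC mouse 4, and the groups overlapped there.

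Gria4 ran the other way, at 5.99, 7.17, 3.82, 5.33 and 5.95 in Sub and 2.82, 5.30, 1.62, 2.44 and 1.29 in CA1. The difference was 2.95 ± 1.09, with an edgeR log2 fold change of 2.15 ± 0.57 (SE, adjusted p = 1.00). Pooled over gates, 21 of 27 Sub against 16 of 67 CA1 nuclei were above 1. The CA1 share was 9 of 19 in the PROX1−CTIP2− gate and 7 of 48 in the PROX1−CTIP2+ gate. Gria2, the subunit that limits calcium entry and the most abundant of the 4, was at 9.86, 10.63, 10.36, 9.35 and 10.00 in Sub and 9.93, 11.31, 10.47, 10.41 and 10.83 in CA1. The Gria2 difference of −0.55 ± 0.44 was small next to those of Gria1 and Gria4. Gria3 was lower in 4 of 5 mice (−1.21 ± 1.25).

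Of the NMDA receptor subunits, the obligatory Grin1 was higher in all 5 mice (8.29 ± 0.33 against 7.12 ± 0.62) and Grin2b lower in all 5 (9.57 ± 0.64 against 10.30 ± 0.33, SD, n = 5). Grin2b had the smallest unadjusted p of the list by edgeR, with a log2 fold change of −0.63 ± 0.16 (SE, adjusted p = 1.00). Grin2a differed by −0.94 ± 1.32, below in 4 of 5 mice.

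Grm2, a group II metabotropic receptor that curbs transmitter release, had levels of 4.52, 2.41, 4.01, 5.92 and 5.74 in Sub and 2.09, 0.00, 0.00, 1.47 and 0.17 in CA1. The groups did not overlap, and 15 of 27 Sub against 7 of 67 CA1 nuclei were above 1 (15 of 27 and 6 of 67 held a count after thinning). The Sub nucleus of HC mouse 3 was at 0.00. Grid1, a delta receptor, was higher without overlap (2.53 ± 0.81 against 1.14 ± 0.62). Grm5 (−0.75 ± 1.73), Grm3 (0.31 ± 0.97) and Grm7 (1.23 ± 2.42) varied more between mice than between types.

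**Figure D3:**
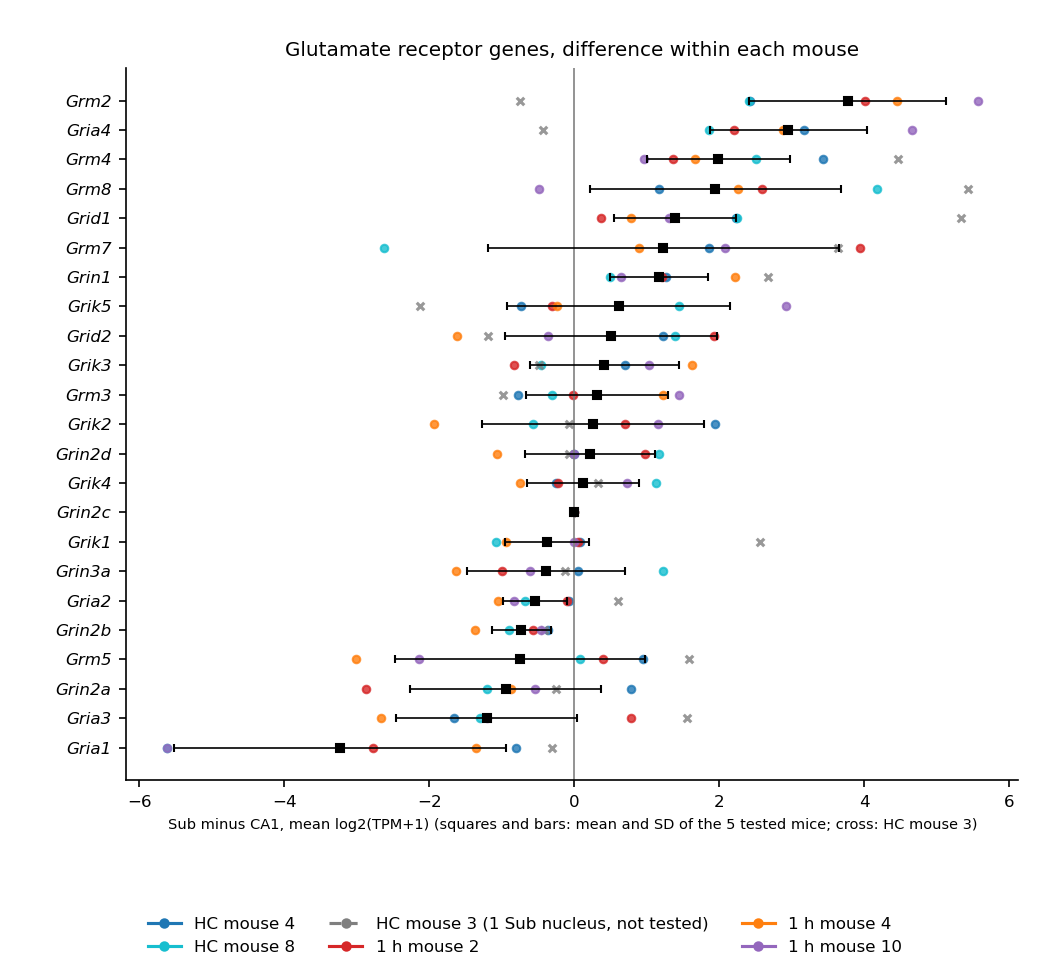
Difference in level, Sub minus CA1, of glutamate receptor genes in log2(TPM+1), with a point per mouse and the mean and SD of the 5 tested mice as square and bar. Grm2 and Gria4 stood at the top and Gria1 at the bottom, and the cross of HC mouse 3 lay apart from the tested mice for Grm2, Gria4 and Gria1.

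Cadherins and protocadherins, adhesion proteins of synapses and axon tracts, leaned towards Sub. Of 22, 19 had a mean level above 0.5, with 6 higher in all 5 mice (Cdh6, Cdh8, Cdh20, Pcdh9, Pcdh10 and Pcdh15) and 2 lower (Pcdh17 and Pcdh20), and a median difference of 0.97 against 0.03 over all genes. Cdh20 was at 2.57, 3.12, 3.44, 1.26 and 1.44 in Sub and 0.17, 0.00, 0.10, 0.15 and 1.08 in CA1. Cdh8 was at 4.76, 4.53, 7.51, 4.65 and 5.62 against 2.91, 3.61, 2.70, 4.19 and 4.37. Neither gene had overlapping groups, and the same held for Cdh6 (1.64 ± 0.78 against 0.06 ± 0.14) and Pcdh10 (4.99 ± 0.86 against 3.24 ± 0.79). Pcdh20 was above 1 in 1 of 27 Sub and 33 of 67 CA1 nuclei.

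Other adhesion and guidance genes held fewer such members. Of 11 teneurins, FLRTs and their partners, 10 had a mean level above 0.5, and Tenm2 alone was higher in all 5 mice, at 8.36, 8.08, 8.65, 7.82 and 8.80 against 5.96, 6.34, 6.27, 7.24 and 7.36. These values did not overlap. Tenm3, which guides CA1 axons to the subiculum, differed by 1.20 ± 1.17 and was higher in 4 of 5 mice. Of 35 axon guidance genes, 30 had a mean level above 0.5, of which Ephb1, an ephrin receptor, was higher in all 5 mice (2.62 ± 1.30 against 0.30 ± 0.42) and Efnb3, an ephrin, lower (1.05 ± 1.54 against 2.62 ± 1.02). That is 1 of 30 in each direction, near the 3.90% and 3.29% of all genes. Epha6 was lower in 4 of 5 mice (−1.88 ± 3.18).

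Ion channels differed little as groups. Over all genes, 3.90% were higher and 3.29% lower in Sub in all 5 mice. Of 46 potassium and HCN channel genes, 34 had a mean level above 0.5, with 2 higher in all 5 mice and 0 lower, and a median difference of 0.09. Dpp10, an auxiliary subunit of Kv4 channels, was the member without overlap, at 5.63, 5.17, 5.21, 6.67 and 5.35 in Sub and 4.54, 4.16, 3.78, 3.93 and 3.64 in CA1. Kcnj9, a GIRK subunit, was the other (0.99 ± 0.69), while Kcnd2, which encodes the Kv4.2 channel, was lower in 4 of 5 mice (−1.57 ± 1.77), as was Kcnip2 (−1.03 ± 1.26). Of 23 sodium and calcium channel genes, 21 were above 0.5 and Cacnb4, a calcium channel beta subunit, was higher in all 5 mice (4.21 ± 1.38 against 2.32 ± 1.18).

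Among receptors for other transmitters, 14 of 15 GABA receptor and scaffold genes had a mean level above 0.5, with Gphn, the scaffold gephyrin, higher in all 5 mice (1.32 ± 0.85) and Gabbr1 lower (−1.10 ± 1.35). That is 1 of 14 in each direction, beside 3.90% and 3.29% of all genes. Of 27 neuromodulator receptors found in the tables, 15 were above 0.5, with Chrna4 and Htr1b higher and Chrm1 and Cnr1 lower in all 5 mice. Chrna4, a nicotinic receptor subunit, was at 2.87, 3.34, 1.88, 3.26 and 3.18 in Sub and 1.42, 0.00, 1.16, 1.75 and 0.46 in CA1, without overlap. Cnr1, the cannabinoid receptor CB1 and a classifier gene, was at 3.43, 1.52, 1.99, 2.34 and 0.14 against 6.05, 5.68, 3.04, 5.29 and 5.03. The CA1 value of 1 h mouse 2 lay below the Sub value of HC mouse 4, so the groups overlapped although each mouse was lower in Sub.

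Of 18 calcium-binding proteins, 16 were above 0.5, with Ncald higher and Hpca, Calb1 and Calm2 lower in all 5 mice. Hpca, hippocalcin, a calcium sensor related to neurocalcin, was at 2.78, 4.51, 6.56, 5.89 and 5.31 in Sub and 5.68, 5.56, 8.27, 8.51 and 7.02 in CA1. Its difference of −2.00 ± 0.75 (SD, n = 5) was steady within mice. Of 16 neuropeptide genes, 8 were above 0.5 and Adcyap1, the peptide PACAP, was higher in all 5 mice (1.41 ± 0.87 against 0.06 ± 0.14), with a value above 1 in 6 of 27 Sub and 3 of 67 CA1 nuclei. The vesicular transporter Slc17a7 (VGLUT1), a classifier gene, was at 7.14 ± 1.61 in Sub and 6.93 ± 1.10 in CA1, and Slc17a8 was low in both (0.71 ± 0.53 and 0.76 ± 0.29).

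**Figure D4:**
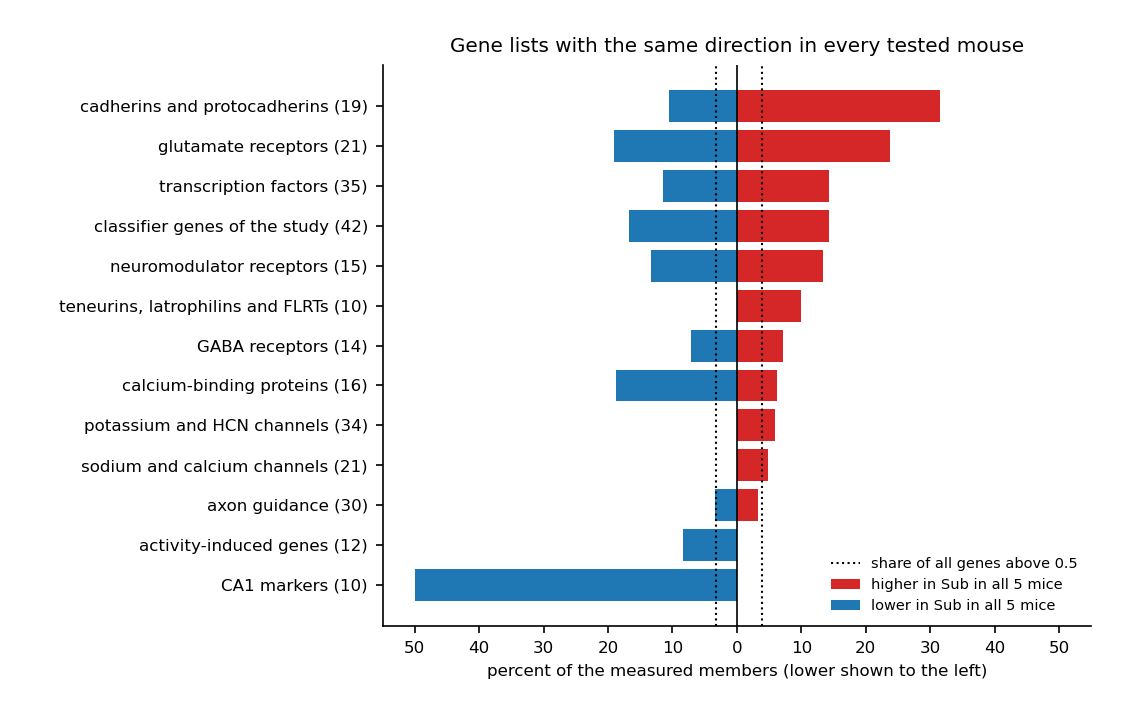
Percent of the members with a mean level above 0.5 that were higher (right) or lower (left) in Sub in all 5 mice, for lists with at least 10 such members, whose number is in brackets. The dotted lines mark 3.90% and 3.29%, the shares of all genes, and cadherins, glutamate receptors and CA1 markers lay furthest beyond them.

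Markers of other cells, including the glia that the NEUN gate should remove, overlapped between the types in their summed levels. Over the 10 interneuron markers in the tables, the summed level lay between 4.14 and 9.05 in Sub and between 2.85 and 9.04 in CA1, and Vip was at 0 in all 5 mice of both types. Gad2 was at 0.66 ± 0.29 in Sub and 0.24 ± 0.21 in CA1. Sst, also on this list, was above 1 in 16 of 27 Sub and 36 of 67 CA1 nuclei. Its level was highest in HC mouse 4, at 5.5 in Sub and 6.0 in CA1. The 12 glia markers summed to between 9.00 and 14.19 in Sub and 6.97 and 15.68 in CA1, with Mog and Csf1r at 0 in Sub and C1qa at 0 in CA1. Of these, Cx3cr1 was lower in Sub in all 5 mice, by −0.28 ± 0.16, and Mbp was higher in 4 of 5 (1.20 ± 1.78). The 7 CA3 markers summed to between 2.72 and 10.74 in Sub and 4.78 and 15.51 in CA1, the 5 CA2 markers to at most 2.52 and 2.43, and the 5 DG markers to at most 3.17 and 3.80. Pdzd2 was the DG marker that was higher in Sub in all 5 mice (1.03 ± 1.01), and the defining DG gene Prox1 was at 0.09 or less in Sub.

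Activity genes overlapped between the FOS− populations. Of 20, 12 had a mean level above 0.5, and Jun, an immediate early factor, was lower in Sub in all 5 mice (0.26 ± 0.58 against 1.22 ± 0.49), with 2 of 27 Sub and 9 of 67 CA1 nuclei above 1. Fos mRNA was at 0.65 ± 0.78 in Sub and 0.98 ± 0.95 in CA1, and Arc at 1.14 ± 1.00 and 1.36 ± 1.34 (SD, n = 5). An Arc value above 2.5, above which the study left FOS− nuclei out of its own tests, occurred in 5 Sub and 27 CA1 nuclei, of which 15 were CA1 nuclei of HC mouse 3. Without them edgeR called 0 of 10301 genes, with 422 at p under 0.05 before adjustment. Bcl11b was at 1.01 ± 0.78 in Sub and 1.87 ± 1.12 in CA1, lower in Sub in 4 of 5 mice.

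The difference between the types was compared between the exposures, with 2 HC and 3 NE pairs. edgeR's test of type by exposure called 0 of 11039 genes, with 419 at p under 0.05 before adjustment, and DESeq2 called 748. Zbtb20 differed by −1.99 and −1.88 in HC mouse 4 and HC mouse 8 and by −7.31, −5.52 and −4.86 in the 1 h mice, a contrast that did not pass (edgeR interaction log2 fold change −4.60, adjusted p = 1.00). HC mouse 3, left out of that test for its single Sub nucleus, differed by −6.91, within the range of the 1 h mice. The HC arm held 2 mice, which limits what this test can detect.

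The same contrast was read in FOS+ nuclei, which entered none of the values above. They were sorted 1 h after NE exposure from 1 h mouse 2 (5 Sub and 24 CA1 nuclei), 1 h mouse 4 (2 and 4) and 1 h mouse 10 (4 and 5). edgeR called 0 of 12464 genes, with 419 at p under 0.05 before adjustment, and DESeq2 called 750. Of the 98 genes whose FOS− groups were separated and higher in Sub, 69 were also higher in the mean of the FOS+ mice (70.4%, against 55.3% of all genes above 0.5), and 29 in all 3 mice (29.6% against 14.1%). Of the 58 separated and lower genes, 40 were lower in the FOS+ mean (69.0% against 44.4%) and 13 in all 3 mice (22.4% against 10.1%). The labels of FOS+ nuclei came from the same clustering, so these shares are a description.

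Genes with large differences in both states included Ptprd, at 10.38, 10.01 and 10.93 in Sub and 6.33, 1.98 and 6.92 in CA1 of the FOS+ nuclei of 1 h mouse 2, 1 h mouse 4 and 1 h mouse 10. Ncald was at 5.19, 8.96 and 7.32 against 2.46, 2.82 and 1.65, and Igfbp5 at 1.83, 5.26 and 3.53 against 0.10, 0.00 and 0.15. Zbtb20 was at 1.86, 5.61 and 1.44 against 5.42, 9.55 and 6.86, lower in each mouse although 1 h mouse 4 in Sub, with 2 nuclei, exceeded 1 h mouse 2 in CA1. Gria1 was lower in Sub in all 3 FOS+ mice, with a mean difference of −0.78 against −3.24 in FOS− nuclei. Other genes had mean differences of opposite sign, at −3.14 in FOS− and 0.38 in FOS+ nuclei for Rfx3 and 1.86 and −1.76 for Cdh8. Among the genes ranked by unadjusted p, 4921534H16Rik, Hdac7 and Eed had edgeR fold changes of opposite sign in FOS+ nuclei. The log2 fold change was 8.64 and −5.86 for 4921534H16Rik and 7.16 and −4.32 for Hdac7. The other ranked genes with a FOS+ fold change kept their sign. Whether these differences depend on FOS state was not tested.

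**Figure D5:**
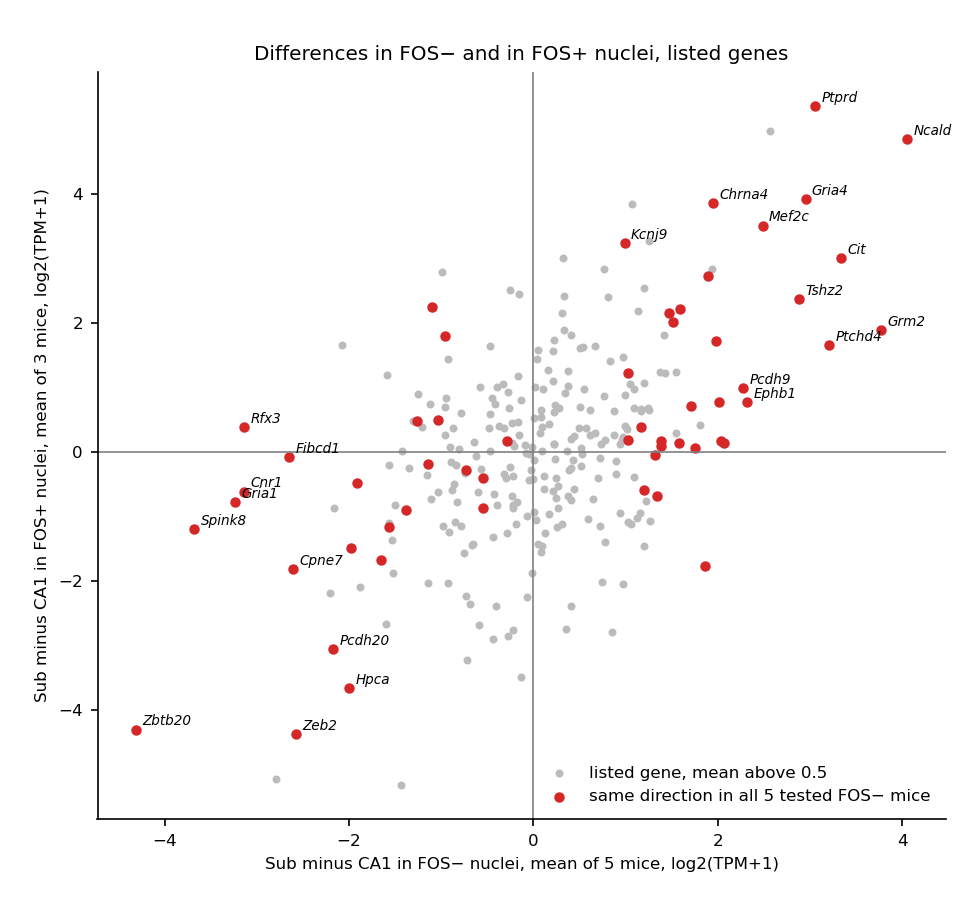
Difference in level, Sub minus CA1, in FOS− nuclei (horizontal, mean of 5 mice) and in FOS+ nuclei (vertical, mean of 3 mice) for listed genes with a mean above 0.5, in log2(TPM+1). Red points had 1 direction in all 5 FOS− mice, and of these 28 of 32 higher and 18 of 24 lower genes kept their sign in FOS+ nuclei.

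HC mouse 3, with a single Sub nucleus against 27 CA1 nuclei, had the direction of the 5 mice at shares near those of all genes. Of the 98 separated higher genes it was higher for 46 (46.9%, against 44.0% of all genes above 0.5), and of the 58 lower genes it was lower for 36 (62.1% against 54.8%). It matched the tested mice for Zbtb20 (0.58 against 7.49), Spink8 (0.00 against 6.93), Ptchd4 and Ptprd (9.40 against 5.15), and not for Gria4 (0.00 against 0.43) or Mef2c (0.00 against 1.47). Gria1 had the direction of the tested mice with a smaller gap (8.42 against 8.73). Its Sub nucleus also held the subiculum markers Nts (6.39), Fn1 (8.02), Fezf2 (6.24) and Teddm3 (7.02).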

How the data were processed

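Nuclear RNA was read on single SmartSeq2 libraries (single-end Illumina reads). The authors trimmed reads with Solexa-QA++ and used RSEM with Bowtie against mm10 (GRCm38) with the Ensembl annotation. The RSEM expected counts, all whole numbers, and the log2(TPM+1) values were used as deposited by the authors, with 42802 and 40221 genes. Genes lacking a value (30 and 23) were left out. Positions are those of GENCODE vM21, joined by symbol. Sequence and strand played no part, so antisense or overlapping genes and near-identical copies cannot be told apart.

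Nuclei with at least 4000 genes above a log2(TPM+1) of 1 were kept, and all members also had over 100000 aligned reads. Cell types are the authors' labels. A mouse was defined by exposure and number, and the FOS− Sub and CA1 nuclei of each mouse came from 1 batch. Counts were summed per mouse and type, and pairs of sums of at least 2 nuclei (5 mice) were fitted with edgeR 4.0.16 in R 4.3.3 (filterByExpr, TMM, mouse as block, glmQLFTest, Benjamini-Hochberg, threshold 0.05). The study tested nuclei with ROTS, which was not run. The pairing is by animal, and the deviations of the 2 levels of a mouse from the type means correlated at 0.022 to 0.086 over genes. Levels are means of log2(TPM+1) over nuclei, compared within mice, and genes with a mean level above 0.5 over both types (13685) were counted. Total counts and genes per nucleus were compared by exact sign-flip permutation over mice. DESeq2 1.42.0, limma 3.58.1 and the other settings are alternatives. Scripts were tested on simulated data. SmartSeq2 has no molecular identifiers, so shares of nuclei cover counting error only.

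The nuclei and all gene lists were chosen with earlier results of these data known. Named genes are, in each direction, the 10 with the smallest unadjusted edgeR p and the same sign in every paired mouse, since none passed adjustment (1 predicted gene, Gm37490, has no level), all subiculum and CA1 markers, up to 3 genes per other list by smallest p, and Arc, Fos, Bcl11b and Prox1. List members with 1 direction in all 5 mice and the remaining genes were named after their values were seen. Dlx6os1, Drd1 and the latrophilins were not analysed here. A few genes of the lists are counted but not reported by name.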

Additional observations from a re-analysis of the deposited data

Results flagged for a closer look

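Among 42 sets of mouse values of the ranked genes, depth and genes per nucleus, 6 held a mouse far from the others of its type, where chance alone flags about 1 set in 20. In Sub, Hdac7 was at 5.48 in 1 h mouse 10, Eed at 0.702 in 1 h mouse 4, Glo1 at 0.242 in HC mouse 8, Sertm1 at 0.556 in HC mouse 4 and Xrcc6 at 1.21 in 1 h mouse 2, all in log2(TPM+1). In CA1, Grm4 was at 0.0657 in 1 h mouse 2 and at 0.00 in the other 4 mice. For Eed, Glo1, Sertm1, Xrcc6 and Grm4 most other mice of that type stood at or near 0, so any positive nucleus sets a mouse apart.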

How the results depend on the processing

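edgeR called 0 genes between Sub and CA1 in the main setting and under every edgeR alternative but the fit with no replicate block, which called 1 (Ptchd4), and limma called 0. DESeq2 called 949, and for the type by exposure test 748, and for FOS+ nuclei 750, and the cause of the gap to edgeR was not tested. Leaving out each mouse kept all edgeR counts at 0. With the mouse pairing as a replicate block 455 genes had an unadjusted p under 0.05, and 471 without it. The numbers of genes lower and higher at that level moved from 185 higher and 270 lower to 194 and 188 in mice of the CTIP2− gate, to 233 and 141 in HC mice and to 123 and 416 in 1 h mice. For the 20 ranked genes, no alternative reversed a direction, and 20 recomputed values passed the threshold, all by DESeq2 except Ptchd4 without the block. The difference in total counts turned to 5414 without 1 h mouse 4, and that in genes per nucleus to −9.0 with at least 2 nuclei or without HC mouse 3 and to −180.6 in the CTIP2− gate alone. Without 1 mouse each, the differences ranged from −161055 to 5414 counts and from −9.0 to 391 genes. Of 1030 recomputed level differences of the other 103 named genes, 3 moved by over 1 SD and 61 changed sign, among them Fn1 without 1 h mouse 2 and Fezf2, Mpped1, Ndst4, Slc17a7 and Arc under other settings. Sums of 4 to 7 Sub nuclei per mouse limit all tests.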

Other observations

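Genes outside the lists also had separated groups, and the following were picked after their values were seen. Dgkg, a diacylglycerol kinase, was at 4.90, 4.63, 2.76, 3.27 and 1.77 in Sub and 7.65, 6.46, 6.46, 8.58 and 8.22 in CA1, and was lower in Sub in all 3 FOS+ mice (−1.55). HC mouse 3 went the other way for Dgkg (6.5 in Sub against 6.3 in CA1).

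Asap1, an activator of Arf GTPase hydrolysis, was at 7.25, 6.91, 8.31, 9.06 and 7.79 in Sub and 4.52, 4.57, 4.78, 2.36 and 1.73 in CA1, and HC mouse 3 and the FOS+ nuclei had the same direction (9.61 against 5.89, and 1.29). Tshz3, a paralog of Tshz2, was at 3.22, 3.97, 3.81, 6.09 and 5.26 against 1.50, 1.84, 0.47, 1.25 and 0.63, and differed by 1.94 in FOS+ nuclei. Dcx, doublecortin, a microtubule protein of young neurons, was at 4.11 ± 0.81 against 1.46 ± 0.92 (SD, n = 5). Sytl2, a synaptotagmin-like protein, was at 3.44 ± 1.98 against 0.18 ± 0.25 in FOS− nuclei and lower in Sub in all 3 FOS+ mice (−0.84). HC mouse 3 went against the tested mice for Tshz3 (0.00 against 0.21), Dcx (0.00 against 0.71) and Sytl2 (0.00 against 1.51).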
